A study of Rattus norvegicus with 12 samples.

Results

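Fibronectin and the matricellular proteins were examined as 8 genes of rat PAC1 cells: Fn1, Tnc, Thbs1, Thbs2, Thbs3, Postn, Sparc and Sparcl1. They were chosen by gene symbol from the 33294 rows of the raw count table, and all 8 symbols had a row. PAC1, a rat smooth muscle line from the pulmonary artery, can be held in a more differentiated state (PAC1-D) or a more proliferative state (PAC1-P). The study used poly(A) RNA sequencing to compare the loss of the RNA-binding proteins RBPMS and MBNL in PAC1-D with the difference between the 2 states. There were 12 libraries in 4 groups of 3. D1 was PAC1-D with control siRNA, P was PAC1-P with control siRNA, RBPMS KD1 was PAC1-D with siRNA against RBPMS, and MBNL KD was PAC1-D treated with siRNAs to MBNL1 and MBNL2. All cells grew in the same serum-containing medium, PAC1-D split once a week at 1 to 10 and PAC1-P 2 times a week at 1 to 20. Each group received 90 pmol of siRNA in 2 transfections. The labels place the second 24 h after the first and the harvest 48 h later, whereas the study's methods give later times for both. The labels give 200000 cells per well for every group, whereas the study's methods give more cells for PAC1-D than for PAC1-P. All libraries came from 1 cell line, and the split schedule of P cannot be told apart from its state. By the study's methods, neither can its seeding density. The labels do not say which libraries came from separate cultures, so the p-values measure the spread between these samples, whereas the study's methods speak of independent biological replicates.

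Fibronectin is a large glycoprotein that cells assemble into fibrils through integrins, and its fibrils guide the deposition of other matrix components. Matricellular proteins are secreted into the matrix but act mainly as modulators of adhesion, growth factor activity and matrix assembly rather than as structural parts. In the vessel wall, tenascin C, periostin and the thrombospondins are known for their rise during injury and remodelling, when smooth muscle cells leave the contractile state.

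RefSeq promoter sequences (build GRCr8) were held for 6 of the 8 genes, and not for Fn1 or Thbs2. The 250 bases upstream of the annotated start are shown for the 4 genes whose levels separate the patterns described here: Tnc and Sparc, called lower in P and in neither knockdown, Thbs1, called changed against D1 in MBNL KD alone, and Postn, called higher in every comparison with D1. Capitals mark GGAATG or its complement CATTCC, the M-CAT element read by TEAD factors, and TATAAA. The Tnc window lies at chr5:82476132-82476381 on the minus strand, Sparc at chr10:40038817-40039066 on the minus strand, Thbs1 at chr3:125510000-125510249 on the plus strand and Postn at chr2:140677811-140678060 on the plus strand.
Tnc: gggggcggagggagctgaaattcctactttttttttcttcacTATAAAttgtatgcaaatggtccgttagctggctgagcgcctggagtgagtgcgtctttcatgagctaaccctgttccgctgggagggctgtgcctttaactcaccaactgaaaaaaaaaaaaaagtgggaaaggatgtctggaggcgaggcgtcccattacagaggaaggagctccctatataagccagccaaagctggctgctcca
Sparc: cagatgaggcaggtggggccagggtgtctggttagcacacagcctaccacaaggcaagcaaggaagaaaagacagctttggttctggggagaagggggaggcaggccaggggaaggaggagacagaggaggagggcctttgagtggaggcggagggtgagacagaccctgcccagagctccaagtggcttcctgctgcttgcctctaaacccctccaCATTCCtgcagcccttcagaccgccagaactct
Thbs1: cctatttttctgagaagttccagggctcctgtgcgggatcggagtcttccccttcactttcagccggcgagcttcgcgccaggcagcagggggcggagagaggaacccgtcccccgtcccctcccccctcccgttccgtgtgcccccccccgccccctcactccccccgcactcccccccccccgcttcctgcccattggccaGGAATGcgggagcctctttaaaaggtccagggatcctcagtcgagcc
Postn: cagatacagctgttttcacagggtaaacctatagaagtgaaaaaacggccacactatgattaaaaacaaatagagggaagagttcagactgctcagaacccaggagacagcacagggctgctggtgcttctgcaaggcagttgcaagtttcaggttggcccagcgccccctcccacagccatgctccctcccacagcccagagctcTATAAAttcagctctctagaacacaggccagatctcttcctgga

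The M-CAT letters occurred 1 time in Sparc, with 27 bases between them and the start, and 1 time in Thbs1, with 41 bases between. Of 33469 rat promoters of this length, 12.1% held these letters on either strand. TATAAA occurred 1 time in Tnc, 202 bases from the start, and 1 time in Postn, 38 bases from the start. Of all promoters, 12.9% held it on either strand. Only these exact letters were sought. The Tnc window also holds tatataa, nearer to the annotated start, which is not marked. The AP-1 letters TGANTCA, the CRE letters TGACGTCA and the CArG box, which SRF reads in contractile genes, were in none of the 6 windows. Their shares among all promoters were 6.34%, 1.59% and 1.5%. The E-box letters CANNTG (65.5% of all promoters) were in Tnc, Postn and Sparc. GGGCGG (30.5%, on either strand), read by SP1, was in Tnc, Thbs1 and Thbs3. A match is a description of these letters, not a binding site.

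Library totals ran from 80842635 to 90771289 counts, with MBNL KD replicate 3 the lowest. That library also stood farthest from its fellow replicates. Levels are given as counts per 1000000 (CPM) of the library size scaled by TMM, a normalisation on genes of stable ratio, and levels of different genes are not compared because transcript length enters them. A floor of 3 counts corresponded to 0.0319 to 0.037 CPM. Of the siRNA targets, Rbpms in RBPMS KD1 was 25.0% of its D1 mean, and in MBNL KD Mbnl1 was 23.8% and Mbnl2 29.6%. In P, Rbpms was 6.32% of D1. The 8 smooth muscle markers summed to 9800 to 10300 CPM in D1, 211 to 224 in P, 4890 to 5060 in RBPMS KD1 and 7830 to 7940 in MBNL KD. The 5 fibroblast markers summed to 1210 to 1230 CPM in D1, 262 to 274 in P, 1130 to 1150 in RBPMS KD1 and 755 to 781 in MBNL KD. Single markers did not all follow these sums. The fibroblast sum was carried by Col14a1 (means of 1081 CPM in D1 and 89.9 in P), whereas Lum was at 131 and 164 CPM and Pi16 at 4.14 and 7.43 CPM, and 2 fibroblast markers were higher and 2 lower in P at an adjusted p under 0.05. Of the smooth muscle markers, 8 of 8 were lower at that threshold in P and in RBPMS KD1, and in MBNL KD 6 were lower and 2, Myh11 and Cnn1, higher. The 5 endothelial markers together gave 0.746 to 0.816 CPM in D1 and 5.43 to 6.76 in P. In RBPMS KD1 they gave 1.82 to 1.84 CPM and in MBNL KD 0.937 to 1.41. Cdh5 and Kdr were at 0 outside P. Of the endothelial markers tested, 3 of 3 were called higher in P, 2 of 2 in RBPMS KD1 and 0 of 2 in MBNL KD. Among all genes, 16.4%, 3.06% and 6.1% were called higher. The 5 epithelial markers reached at most 0.278 CPM and the 5 leukocyte and macrophage markers 48.8 to 86.8 CPM. The latter sum was carried by Cd14, with means of 59.3 CPM in D1, 48.7 in P, 84.9 in RBPMS KD1 and 52.7 in MBNL KD. Ptprc, Adgre1, Cd68 and Csf1r each averaged under 1 CPM in every group. These sums moved with the groups, and their part in the results was not tested.

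Of the 8 genes, 7 had enough counts to be tested. Sparcl1, which encodes a SPARC relative (hevin) found in quiescent tissue, had 0 counts in 11 libraries and 2 counts in MBNL KD replicate 1. A count of 0 allows a level of up to 0.0319 to 0.037 CPM depending on the library. The 7 others were tested with the edgeR quasi-likelihood test on the counts, and p-values were adjusted over all tested genes by the Benjamini-Hochberg method. A gene was called changed when its adjusted p was under 0.05 and its log2 fold change was beyond 1 in either direction. In bulk RNA, fewer cells that express a gene and less RNA per cell cannot be told apart.

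**Figure D1:**
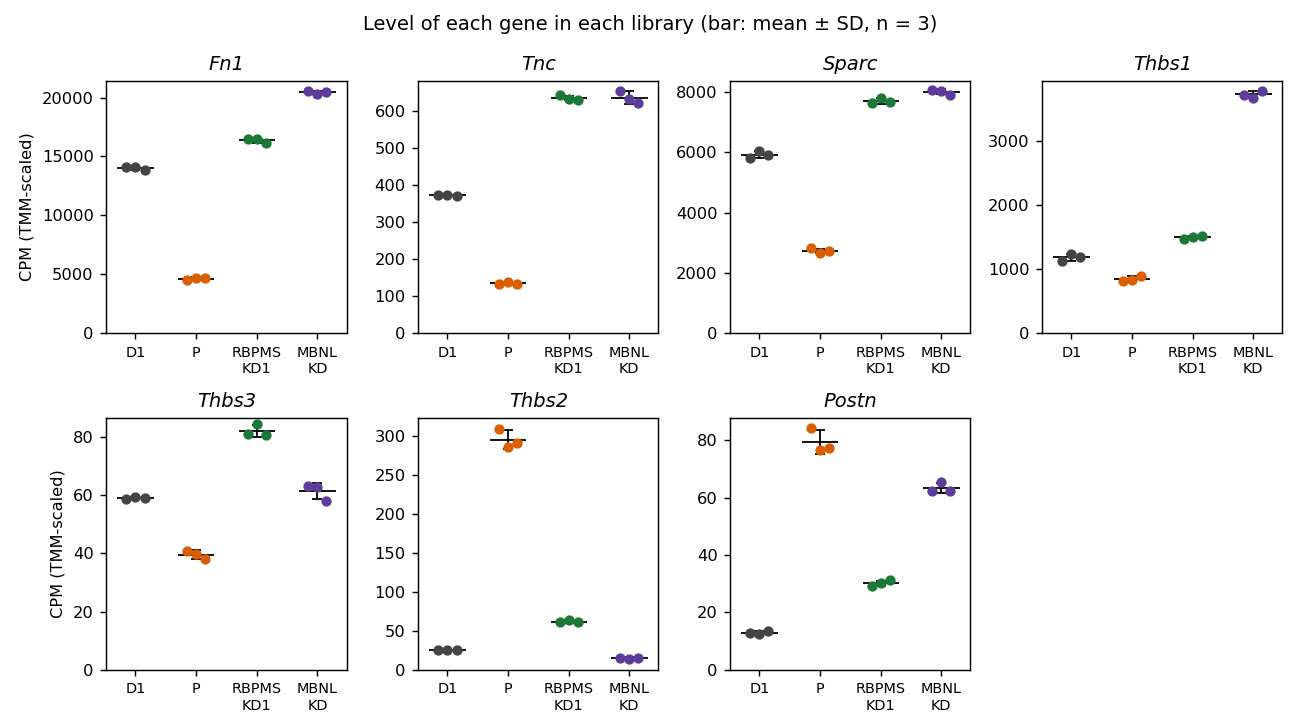
Level of each tested gene in CPM (linear axis from 0) in the 3 libraries of each group, with the mean and SD. Fn1, Tnc and Sparc were lowest in P and higher in both knockdowns than in D1, Thbs2 and Postn were highest in P, and Thbs1 was highest in MBNL KD.

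In PAC1-P cells, the transcripts for fibronectin, tenascin C and SPARC fell while those for thrombospondin 2 and periostin rose. Of the 7 genes tested, 2 were called higher and 3 lower in P than in D1, against 27.6% of all 16814 genes called in either direction (16.4% higher and 11.2% lower). Under quantile normalisation and on the authors' normalised values 3 were called, Fn1 and Sparc being lost. With so many genes changed between the states, 7 of 7 genes with non-overlapping groups stood beside 79.1% of all genes. The median log2 fold change was -0.58 over the 7 genes and 0.02 over all genes tested.

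RBPMS KD1 differed from D1 by less. All 7 had an adjusted p under 0.05 and were higher than in D1, where 29.5% of all genes were higher at that threshold. Under quantile normalisation and on the authors' normalised values the difference of Fn1 was 0. Of them, 2 were called changed, Thbs2 and Postn, beside 4.68% of all 15904 genes (3.06% higher and 1.62% lower). The groups did not overlap for 7 of 7, beside 63.4% of all genes. The median log2 fold change was 0.48 over the 7 genes and 0.00 over all genes. MBNL KD called 2 genes higher, Thbs1 and Postn, and 0 lower, beside 10.2% of all 16053 genes (6.1% higher and 4.14% lower). The groups did not overlap for 6 of 7, beside 70.3% of all genes. At an adjusted p under 0.05 alone, 5 were higher and 1, Thbs2, was lower, where 33.8% and 33.7% of all genes were higher and lower. The median log2 fold change in MBNL KD was 0.55 over the 7 genes and 0.01 over all genes. The 3 comparisons share the D1 libraries, so their values are given side by side and are not independent.

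**Figure D2:**
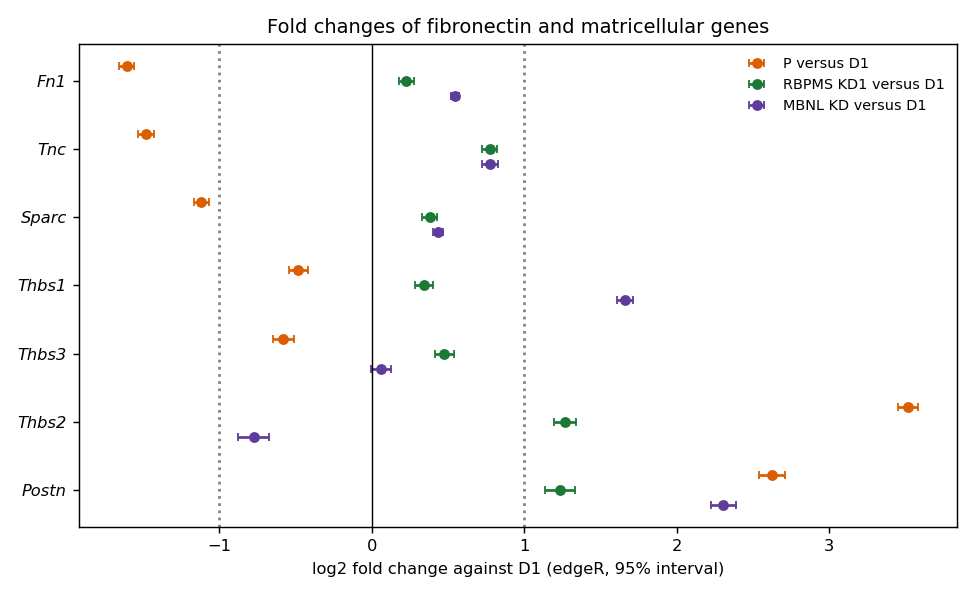
Log2 fold change against D1 with its 95% interval from edgeR for the 7 tested genes in P, RBPMS KD1 and MBNL KD, with dotted lines at the fold threshold of 1. Fn1, Tnc and Sparc lie below -1 in P and between 0.23 and 0.78 in the knockdowns, whereas Postn lies above 1 in all 3 comparisons.

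Fn1 encodes fibronectin itself. Its level was 14138, 14103 and 13839 CPM in the 3 D1 libraries and 4482, 4714 and 4669 CPM in P. RBPMS KD1 gave 16509, 16508 and 16131 CPM and MBNL KD 20600, 20338 and 20471 CPM. All 4 groups were separate, in the order P, D1, RBPMS KD1 and MBNL KD. Fn1 fell by 1.61 on the log2 scale in P (SE 0.024, adjusted p = 1.55e-33 by edgeR). In the knockdowns its log2 differences were 0.23 (SE 0.024, adjusted p = 3.09e-09) and 0.55 (SE 0.012, adjusted p = 7.29e-26), both under the fold threshold. The call in P was lost under quantile normalisation (-0.84) and on the authors' values (-0.87), and under both the difference in RBPMS KD1 was 0. Fn1 alone took 1.35% of all counts in D1, 0.497% in P, 1.59% in RBPMS KD1 and 2.04% in MBNL KD.

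Tnc encodes tenascin C, a large hexameric glycoprotein that weakens adhesion to fibronectin. D1 libraries held 374, 372 and 371 CPM and P libraries 132, 138 and 132 CPM. The RBPMS KD1 libraries were at 644, 633 and 632 CPM, and those of MBNL KD at 656, 634 and 623 CPM. The knockdown groups overlapped each other and lay wholly above D1, and P lay wholly below it. Tnc fell by 1.48 on the log2 scale in P (SE 0.025, adjusted p = 6.87e-32 by edgeR). Its log2 difference from D1 was 0.77 in RBPMS KD1 (SE 0.024, adjusted p = 6.47e-21) and 0.78 in MBNL KD (SE 0.025, adjusted p = 1.66e-21). The log2 difference between the knockdowns was 0.00 (95% interval -0.05 to 0.05, adjusted p = 0.956 by edgeR), and its sign depended on the normalisation.

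Sparc encodes SPARC (osteonectin), a collagen-binding protein that takes part in collagen assembly. Its level was 5799, 6048 and 5922 CPM in D1 and 2808, 2668 and 2733 CPM in P. It was 7625, 7805 and 7665 CPM in RBPMS KD1 and 8070, 8054 and 7919 CPM in MBNL KD. As for Fn1, P was lowest and MBNL KD highest, with no overlap of any groups. Sparc fell by 1.12 on the log2 scale in P (SE 0.024, adjusted p = 4.93e-29 by edgeR), close to the fold threshold, and the call was lost under quantile normalisation (-0.61) and on the authors' values (-0.38). Its log2 differences of 0.38 in RBPMS KD1 (SE 0.024, adjusted p = 9.29e-14) and 0.44 in MBNL KD (SE 0.016, adjusted p = 2.63e-20) were under that threshold. Between the knockdowns the log2 difference was -0.05 (adjusted p = 0.00254). Without MBNL KD replicate 1 or 2 the adjusted p was 0.0908 or 0.123.

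The 3 thrombospondins took 3 different courses. Thbs1 encodes the trimeric thrombospondin 1, which binds CD47 and can activate latent TGF-beta. It was at 1118, 1236 and 1186 CPM in D1 and at 814, 831 and 897 CPM in P. RBPMS KD1 held 1474, 1496 and 1516 CPM, while MBNL KD held 3720, 3674 and 3785 CPM, the highest of the 4 groups by a wide margin. Thbs1 rose by 1.66 on the log2 scale in MBNL KD (SE 0.025, adjusted p = 1.67e-29 by edgeR), to 316% of its D1 mean. Its log2 differences in P, -0.48 (SE 0.031, adjusted p = 1.07e-15), and in RBPMS KD1, 0.34 (SE 0.029, adjusted p = 2.37e-11), were under the fold threshold.

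Thbs2 encodes thrombospondin 2, the close relative of thrombospondin 1 that is known to limit vessel growth and does not activate TGF-beta. Its level was 25.6, 25.8 and 25.6 CPM in D1 and 308, 285 and 291 CPM in P. RBPMS KD1 held 60.6, 63.8 and 60.8 CPM, above D1, and MBNL KD held 15.3, 14.0 and 15.6 CPM, below D1. Thbs2 rose by 3.52 on the log2 scale in P (SE 0.032, adjusted p = 9.76e-40 by edgeR) and in RBPMS KD1 by 1.27 (SE 0.036, adjusted p = 9.72e-22). In MBNL KD the log2 difference was -0.78 (SE 0.049, adjusted p = 1.27e-14), under the fold threshold. The lowest group rested on 1260 to 1365 counts per library, so the low levels of Thbs2 were well above the floor.

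Thbs3 encodes a pentameric thrombospondin of less known function. D1 libraries were at 58.7, 59.4 and 58.9 CPM and P libraries at 41.0, 39.8 and 38.0 CPM. Those of RBPMS KD1 were at 81.1, 84.3 and 80.5 CPM, and those of MBNL KD at 63.1, 62.9 and 58.1 CPM. MBNL KD overlapped D1 through replicate 3, the library with the fewest counts. The log2 difference was -0.58 in P (SE 0.034, adjusted p = 1.02e-16) and 0.48 in RBPMS KD1 (SE 0.030, adjusted p = 7.06e-14), and 0.06 in MBNL KD (95% interval -0.01 to 0.12, adjusted p = 0.108). Without MBNL KD replicate 3 it was 0.10 (adjusted p = 0.011). Thbs3 was called changed in none of the 3 comparisons with D1.

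Postn encodes periostin, a fasciclin-domain protein that links tenascin C, fibronectin and collagen and is known from remodelling vessels and healing wounds. Its level was 12.7, 12.3 and 13.5 CPM in D1 and 84.2, 76.4 and 77.3 CPM in P. It was 29.3, 30.1 and 31.1 CPM in RBPMS KD1 and 62.4, 65.3 and 62.4 CPM in MBNL KD. The 4 groups did not overlap, and D1 was the lowest. Postn was called higher in all 3 comparisons with D1, by 2.62 on the log2 scale in P (SE 0.043, adjusted p = 1.33e-32 by edgeR), by 1.24 in RBPMS KD1 (SE 0.048, adjusted p = 1.12e-18) and by 2.31 in MBNL KD (SE 0.041, adjusted p = 5.67e-28). Its D1 libraries held 1060 to 1174 counts.

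The direct comparison of the knockdowns asks whether the members respond differently to the 2 treatments. Of the 7 genes, 3 were called changed, beside 11.9% of all 16111 genes (6.03% higher and 5.88% lower). Thbs2 was higher in RBPMS KD1 than in MBNL KD by 2.05 on the log2 scale (SE 0.042, adjusted p = 1.03e-26 by edgeR). Thbs1, with a log2 difference of -1.31 (SE 0.020, adjusted p = 1.08e-29), and Postn, with -1.07 (SE 0.036, adjusted p = 1.41e-21), were lower. The 95% interval of Postn, -1.14 to -0.99, spanned the fold threshold, and in a test against a fold change of 2 its call was lost (adjusted p = 0.146). Thbs1 and Thbs2 therefore differed between the knockdowns in opposite directions. Fn1 was lower in RBPMS KD1 by a log2 difference of -0.32 (SE 0.012, adjusted p = 7.09e-20) and Thbs3 higher by 0.42 (SE 0.032, adjusted p = 8.08e-13), both under the fold threshold.

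P was also compared with each knockdown. Against RBPMS KD1, 2 genes (Thbs2 and Postn) were called higher in P and 4 (Fn1, Tnc, Thbs3 and Sparc) lower, beside 29.1% of all genes called (16.1% higher and 13% lower). Against MBNL KD, Thbs2 was called higher and 4 genes (Fn1, Tnc, Thbs1 and Sparc) lower, beside 32.9% of all genes (17.9% higher and 15% lower). Under quantile normalisation and on the authors' normalised values, the calls of Fn1 (-0.93 and -0.87) and Sparc (-0.77 and -0.79) against RBPMS KD1 were lost, as was that of Sparc (-0.84 and -0.95) against MBNL KD. The log2 difference of Thbs2 between P and MBNL KD was 4.26 (SE 0.036, adjusted p = 1.96e-37 by edgeR), the largest among the members in any comparison. Postn, in contrast, differed between P and MBNL KD by 0.29 (SE 0.034, adjusted p = 4.67e-09), under the fold threshold.

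The 8 genes together took 2.08%, 2.09% and 2.06% of all counts in the D1 libraries. They took 0.933%, 0.943% and 0.945% in P. RBPMS KD1 libraries gave 2.57%, 2.57% and 2.55%, and MBNL KD libraries 3.29%, 3.28% and 3.30%. No groups overlapped, and each comparison with D1 gave p = 0.1 in a two-sided exact permutation test, the smallest p that 3 libraries against 3 allow. Without Fn1 the share was 0.727% ± 0.014 (SD, n = 3) in D1, 0.444% ± 0.0080 in P, 0.972% ± 0.0074 in RBPMS KD1 and 1.25% ± 0.0011 in MBNL KD, in the same order. Sparc and Thbs1 carried that remainder. In D1, P, RBPMS KD1 and MBNL KD, Sparc took 0.569%, 0.294%, 0.748% and 0.800% of counts. Thbs1 took 0.113%, 0.0910%, 0.145% and 0.372%. Thbs2 and Postn, which rose in P, took 0.0317% and 0.0085% there, so the sums hardly show them.

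**Figure D3:**
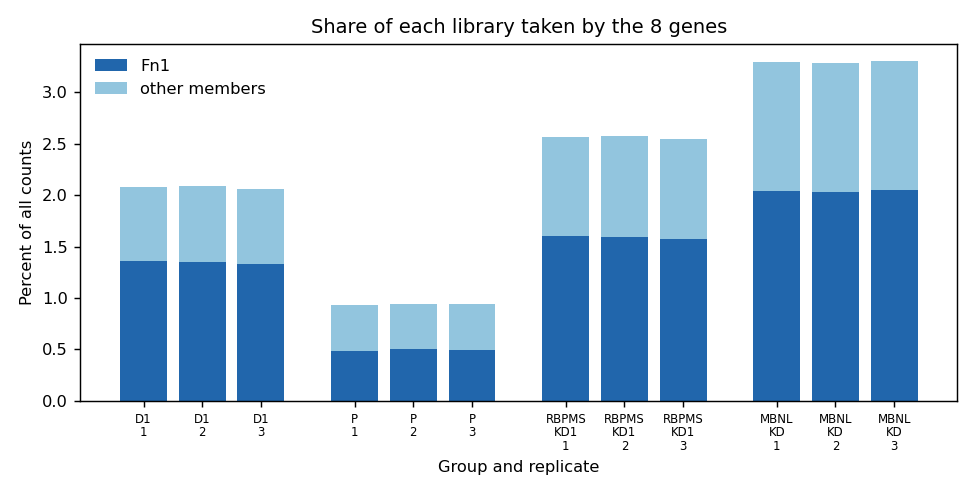
Percent of all counts in each of the 12 libraries taken by Fn1 (dark) and by the other members (light), as stacked bars from 0. The bars reach 2.06% to 2.09% in D1, 0.933% to 0.945% in P, 2.55% to 2.57% in RBPMS KD1 and 3.28% to 3.30% in MBNL KD.

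Quantile normalisation, which the authors applied to their normalised table, gives each library the same set of values in rank order. Fn1 was the gene of rank 4 in every library of D1 and RBPMS KD1 and so carried the same value in both groups, although its counts differed. It was of rank 2 in MBNL KD and of rank 6 or 7 in P. Sparc was of rank 9 in D1, 12 in P, 7 in RBPMS KD1 and 6 in MBNL KD, with 1 value per group. On those values (limma) the log2 fold change in P was -0.87 for Fn1 (adjusted p = 1.82e-06) and -0.38 for Sparc (adjusted p = 7.99e-07), and neither was called, so 3 of the 7 genes were called in P in place of 5. Quantile normalisation of the counts gave -0.84 for Fn1 and -0.61 for Sparc.

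**Figure D4:**
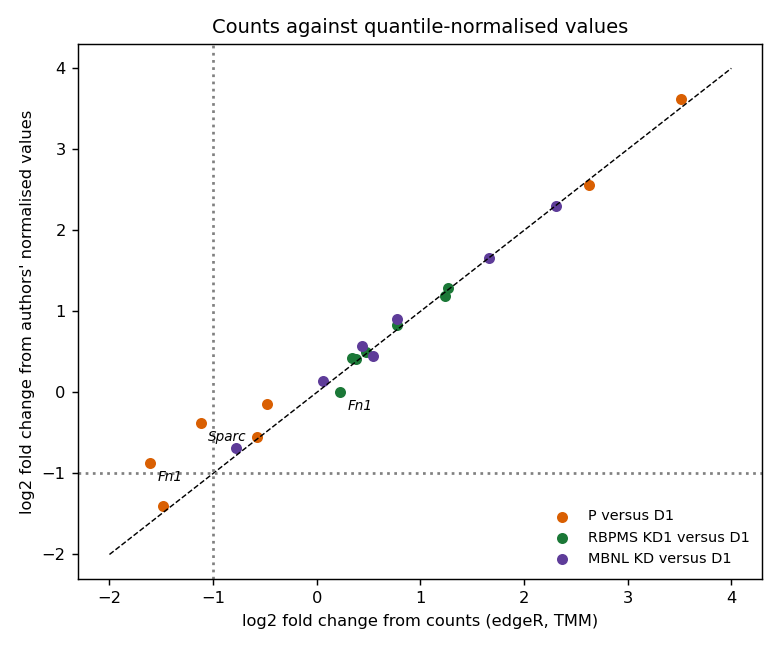
Log2 fold change against D1 from the counts (horizontal axis) and from the authors' normalised values (vertical axis) for the 7 genes, coloured by comparison, with the dashed line of equality and dotted lines at -1. Fn1 and Sparc in P lie above the line, at -0.87 and -0.38 on the vertical axis, and Fn1 in RBPMS KD1 lies at 0.

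Other matricellular genes fell in P more often than they rose. Of 20 listed genes, 19 were in the table and 12 were tested in P, with 1 called higher and 8 lower (median log2 fold change -1.497, beside 0.02 over all genes), where 16.4% and 11.2% of all genes were called. Ccn3 fell by 4.61 in P (SE 0.033, adjusted p = 1.2e-42 by edgeR) and Ccn2, the connective tissue growth factor that is a classical YAP and SRF target, fell by 3.00 (SE 0.027, adjusted p = 1.34e-39). Tnn, which encodes tenascin N, fell by 3.23 (SE 0.31, adjusted p = 3.72e-11). Its counts were low, with means of 134 in D1 and 15.3 in P. The lowest P library, at 0.0427 CPM, was near the floor. Tgfbi, the fasciclin-domain relative of Postn, went the other way: it had 4, 0 and 2 counts in D1 and 128642, 126161 and 127254 in P, and 4 to 16 counts per library in the knockdowns.

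The same genes stood differently in the knockdowns. In MBNL KD, 4 of 11 tested were called higher and 0 lower (median 0.47, beside 0.01 over all genes), where 6.1% and 4.14% of all genes were called: Ccn4 by 2.04 (SE 0.026, adjusted p = 4.26e-31 by edgeR), Tnn by 1.53 (SE 0.13, adjusted p = 6.07e-12), Comp by 1.26 (SE 0.079, adjusted p = 1.32e-14) and Ccn2 by 1.08 (SE 0.023, adjusted p = 5.5e-26). Comp encodes thrombospondin 5, and Ccn4 is a Wnt-induced relative of Ccn2. In RBPMS KD1, edgeR called 0 of 11 changed at the fold threshold, with 7 higher and 4 lower at an adjusted p under 0.05 (median 0.25, beside 0.00). Of all genes, 4.68% were called, and 29.5% were higher and 29.5% lower at that adjusted p.

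Receptors of these proteins, namely integrins, syndecans and others, were changed in both directions in P, with 6 of 20 tested genes called higher and 7 lower (median -0.23), beside 16.4% and 11.2% of all genes. Itga9, an integrin chain that binds tenascin C, rose by 5.30 (SE 0.047, adjusted p = 7.73e-40 by edgeR). Itga8, the chain of an integrin of contractile smooth muscle that binds fibronectin and tenascin C, fell by 3.28 (SE 0.12, adjusted p = 4.51e-22). Itgb6 fell by 3.19 (SE 0.29) and the heparan sulfate proteoglycan Sdc3 by 2.85 (SE 0.027). The counts of Itgb6 were low, with means of 122 in D1 and 14.3 in P. In MBNL KD, 3 of 19 were called higher and 0 lower (median 0.10), beside 6.1% and 4.14% of all genes: Itga8 by 2.47 (SE 0.054, adjusted p = 7.56e-26), Itga9 by 1.99 (SE 0.082, adjusted p = 4.81e-19) and Itga3 by 1.02 (SE 0.026, adjusted p = 5.67e-24). In RBPMS KD1, 1 of 19 was called, Itgb3, higher by 1.14 (SE 0.076, adjusted p = 2.32e-13), with a median of 0.12. That count is near the 4.68% of all genes called.

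Genes of matrix assembly and turnover were called higher for 2 and lower for 4 of 17 in P (median -0.49), beside 27.6% of all genes called in either direction. Mmp2, which encodes a gelatinase, rose by 1.10 in P (SE 0.050, adjusted p = 7.8e-20 by edgeR) and in RBPMS KD1 by 2.26 (SE 0.044, adjusted p = 2.34e-25). Ltbp1, the binding protein of latent TGF-beta, fell by 1.42 in P (SE 0.026) and Loxl1 by 1.10 (SE 0.024). Dcn, which encodes decorin, fell by 1.24 in MBNL KD (SE 0.068, adjusted p = 5.29e-16). In the knockdowns, 2 of 18 were called higher in each and 0 (RBPMS KD1) and 1 (MBNL KD) lower, with medians of 0.29 and 0.37, beside 4.68% and 10.2% of all genes called.

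The TGF-beta axis and its transcription factors, known regulators of Fn1 and Postn, were called higher for 3 and lower for 4 of 19 genes in P (median -0.01), beside 27.6% of all genes called (16.4% higher and 11.2% lower). Tgfbr2 rose by 2.04 (SE 0.025, adjusted p = 6.81e-36 by edgeR) and Tgfb1 by 1.41 (SE 0.029, adjusted p = 6.95e-30). Tgfb2 fell by 2.26 (SE 0.030, adjusted p = 3.56e-35) and Snai2 by 2.72 (SE 0.048, adjusted p = 1.09e-31). With edgeR, 0 of 19 were called in either knockdown, where 4.68% (RBPMS KD1) and 10.2% (MBNL KD) of all genes were called, although 13 genes (RBPMS KD1) and 17 genes (MBNL KD) passed the adjusted p threshold of 0.05, beside 59.1% and 67.5% of all genes.

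**Figure D5:**
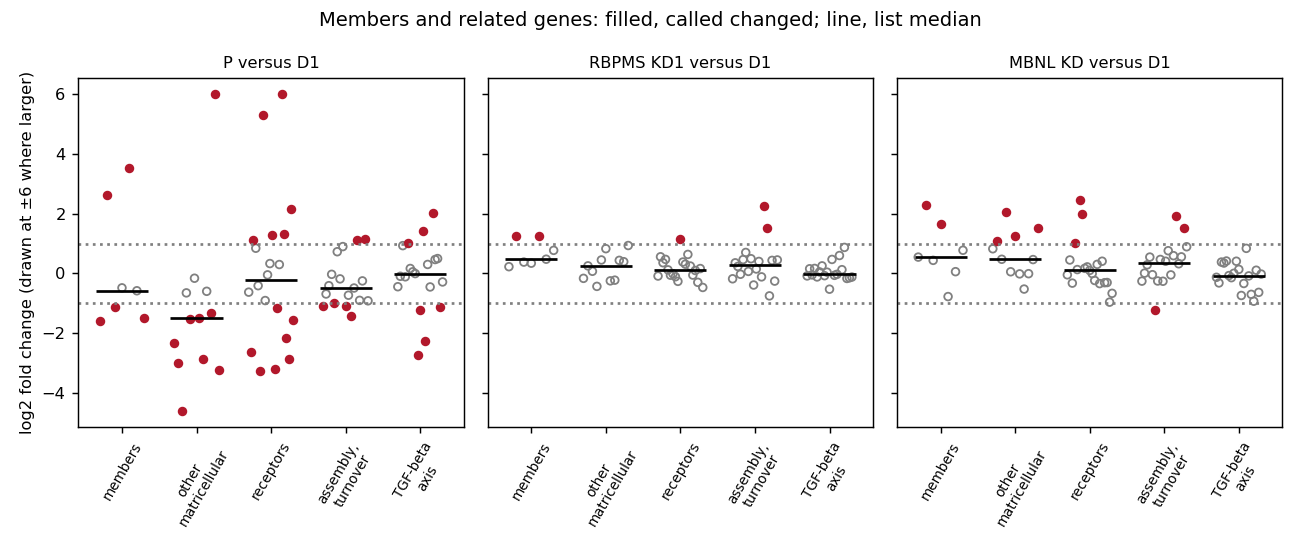
Log2 fold change against D1 of the members and of 4 lists of related genes in P, RBPMS KD1 and MBNL KD, with called genes filled, other tested genes open and the list median as a line. The genes beyond 6 in P are drawn at 6. In P the median was -1.497 for other matricellular genes and -0.01 for the TGF-beta axis, and fewer points are filled in the knockdown panels.

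Profiles over the 12 libraries (log2 CPM minus the D1 mean) were compared with those of 11542 genes by root mean square (RMS) difference. Nearest to Fn1 were Pxdc1 (RMS 0.069) and Hspb2 (0.081), nearest to Sparc were Acyp1 (0.061) and Ncald (0.066), and nearest to Thbs3 were Mcoln1 (0.055) and Laptm4b (0.058). The profile of Tnc lay nearest to Ltbp1 (0.19), a gene of the assembly list, and Aen (0.19). Thbs1 was nearest to Tnfrsf11b (0.18) and Slc1a5 (0.23). Thbs2 was nearest to Sfrp2 (0.26) and Psmb9 (0.31), and Postn to Loxl4 (0.29) and Exoc3l2 (0.31). The RMS differences of Thbs2 and Postn were thus larger than those of Fn1, Sparc and Thbs3, and the points share libraries and groups. The choice of neighbours depended on the measure: the 2 genes nearest by Pearson correlation shared 0 with those named for Fn1, Tnc, Thbs1, Postn and Sparc, and 1 each for Thbs2 (Sfrp2) and Thbs3 (Mcoln1).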

How the data were processed

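Poly(A) RNA of 12 libraries was sequenced. The authors subsampled reads to equal depth, aligned them to mRatBN7.2 with STAR 2.7.11b and deposited raw gene counts (featureCounts, RefSeq). Strand and read-pair settings are not given in the sources used here. The library totals lay above the read depth that the study's methods give after subsampling. Even counts were 2.06 to 2.36 times as frequent as odd ones in each library, so both reads of a pair may have been counted. A count, and the floor of 3 counts, may then stand for fewer fragments than it says, and halved counts were tried as an alternative. The authors also deposited a noisyR-filtered, quantile-normalised signal for 19812 genes. The study's methods credit edgeR and DESeq2, and the submitters' notes give versions 3.40.2 and 1.38.3.

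Here, the counts of the 6 libraries of each pair of groups were filtered with filterByExpr, scaled by TMM and tested with the quasi-likelihood F-test of edgeR 4.0.16 in R 4.3.3. Intervals are 95% intervals. limma 3.58.1 and DESeq2 1.42.0 served alternatives. A call needed an adjusted p under 0.05 (Benjamini-Hochberg over all tested genes) and an absolute log2 fold change over 1. Summed shares were compared by exact permutation.

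The members and lists were chosen with earlier results of these data known. Named related genes were up to 4 called genes per list and comparison with D1, ranked by fold change and with at least 100 scaled counts. The 2 nearest genes by RMS, with log2 CPM at a prior count of 1, were named per member. A related gene that met the naming rule is not reported here by name.

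Replicate numbers did not pair the libraries: correlations of same-numbered deviations ran from -0.065 to 0.093. Replicates differed beyond sampling noise. On GRCr8 a lncRNA overlaps each of Tnc and Thbs1, and neither had a row in the count table, so reads from them could not be told apart from those of the members. Alternatives were other normalisations, filters, tools, thresholds, a replicate block, halved counts and leaving out each library. Floors cover counting error only.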

Additional observations from a re-analysis of the deposited data

How the results depend on the processing

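Of 798 alternative values of the members' fold changes, 765 did not reverse and kept their side of the call threshold, 2 of them, Fn1 in RBPMS KD1 under quantile normalisation and on the authors' values, being 0 and so without a direction. In P against D1, 3 members were called under quantile normalisation with limma and 3 on the authors' normalised values, in place of 5, Fn1 and Sparc being lost. Under quantile normalisation a value is set by rank alone. The same settings ended the calls of Fn1 (-0.926 and -0.871) and Sparc (-0.765 and -0.793) in P against RBPMS KD1 (4 members called under each, in place of 6) and of Sparc (-0.843 and -0.949) in P against MBNL KD (4 in place of 5). With no fold threshold 7 members were called in RBPMS KD1, 6 in MBNL KD and 6 between the knockdowns, in place of 2, 2 and 3. The log2 difference of Tnc between the knockdowns changed sign from 0.00 to -0.0473 with upper-quartile normalisation (adjusted p = 0.0909), -0.0881 with quantile normalisation (0.000684), -0.0793 on the authors' values (0.00565) and -0.00309 in the fit of all 12 libraries (0.931). It was -0.00713 to 0.0332 over the leave-one-out fits, negative without MBNL KD replicate 3. The summed share differed from D1 by -1.13, 0.490 and 1.22 percentage points in P, RBPMS KD1 and MBNL KD. Without Fn1 it differed by -0.283, 0.245 and 0.522, and on the authors' values by -0.689, 0.235 and 0.981. Postn between the knockdowns was not past a test against a fold change of 2 (adjusted p = 0.146). Leaving out any 1 library changed no call of a member.

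The replicate block moved no count of called members (5, 2 and 2 in the comparisons with D1, 3 between the knockdowns, 6 and 5 for P against RBPMS KD1 and MBNL KD), and the numbers do not pair the libraries. Of all calls, 59.4% were higher in P, 65.4% in RBPMS KD1 and 59.6% in MBNL KD, against 45.4%, 53.8% and 50% under quantile normalisation. The cause was not tested. Over all genes, calls in RBPMS KD1, MBNL KD and between the knockdowns (745, 1643 and 1920) were 209, 784 and 1050 on the authors' values and 167, 847 and 973 in a test against a fold change of 2. Requiring 10 counts in every library gave 2933 calls in P in place of 4641 and 3154 for P against RBPMS KD1 in place of 4914. With no fold threshold calls ran from 9393 to 13833. Among the members, Sparcl1 was not tested, at 0 to 2 counts per library.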
